A study of Mus musculus with 9 samples.

Results

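The genes of oxidative phosphorylation and of the mitochondrial ribosome were described in culture-expanded myoepithelial cells of the mouse trachea that carried a Lef1 knock-in allele (Lef1KI) or not (WT). Members were taken by gene symbol from the table of 13336 genes, and 187 were found. They comprised 93 nuclear genes of the respiratory chain and ATP synthase, 15 genes of the mitochondrial genome (mt- genes) and 79 genes of mitochondrial ribosomal proteins. By symbol, the nuclear genes were 38 of complex I, 7 Ndufaf assembly factors and 4 of complex II. A further 10 were of complex III with cytochrome c, 16 of complex IV and 18 of complex V. The mitoribosome genes were likewise split by symbol, 50 to the large (Mrpl) and 29 to the small subunit (Mrps). Whether each protein sits in that subunit was not checked. The symbols also took in 3 pseudogenes (Atp5l-ps2, Mrpl48-ps and Mrpl23-ps1).

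The study asked what excess Lef1, a transcription factor of Wnt signalling, does to these contractile, basal-type cells of the airway glands. Each of the 9 libraries, 5 of Lef1KI and 4 of WT, came from gland cells pooled from 3 to 5 mice. All mice carried ACTA2-CreERT2, a tamoxifen-inducible Cre under the promoter of smooth muscle actin, combined with Lef-1KI (given as +/+ for the sorted cells) or with the reporter allele ROSA-TG, and all received tamoxifen on 5 days. Both groups were grown to passage 1 in airway medium with Y-27632 at 10 µM and DMH-1, A83-01 and CHIR 99021 at 1 µM each. Sorted cells were GFP-negative in Lef1KI and GFP-positive in WT, so genotype and gate cannot be told apart. Mouse age and strain are not stated in the sources used here. Nothing ties the letters of the table to the numbered samples, so libraries are called by those letters (Lef1KI A to E and WT A, B, E and D).

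Lef1 had 139 to 312 TPM (transcript abundance scaled by gene length and by the library's total) in Lef1KI and 0.38 to 0.55 TPM in WT. Of 12 basal and myoepithelial markers, 10 were in the table; Krt5 averaged 8586 and 7008 TPM in Lef1KI and WT, Acta2 62.3 and 129 TPM, while Myh11 lay under 1 TPM in both (0.742 and 0.838 TPM). The summed level of these markers was 20130 to 24130 TPM in Lef1KI and 15410 to 22310 TPM in WT, and Ngfr was the only one that passed the test, lower in Lef1KI. Other cell markers moved with the groups: 14 of 16 stromal genes rose, led by Col6a3 (8.71 TPM in WT and 73.1 in Lef1KI) and Col1a1 (4.96 and 40.4 TPM), with summed levels of 1616 to 4453 TPM in Lef1KI and 404 to 1104 TPM in WT. Of 11 measured endothelial markers 7 rose, Ramp2 and Plvap with the lowest p (47.9 to 136 TPM against 23.6 to 33.9 TPM summed; Tek was at 0.238 and 0.22 TPM). Of 3 measured leukocyte markers (10 listed) Lyz2 and Coro1a rose. The other, Cd68, had a negative difference (−1.18, unadjusted limma p under 0.05) and did not pass. Summed levels were 58.1 to 244 TPM in Lef1KI and 111 to 259 TPM in WT. Ptprc is not in the table, and Coro1a was at 0.544 and 0.13 TPM. All 7 measured luminal, secretory and ciliated markers (11 listed) had negative differences (median −0.56), of which Elf3 passed (29.3 TPM in Lef1KI and 94.6 in WT); they summed to 286 to 1224 and 452 to 1173 TPM. Of 9 stress and long nuclear transcripts, Atf3 rose (108 and 64.5 TPM). The part of these markers in the results below was not tested. Because cells were measured in bulk, fewer cells of a type and less RNA per cell cannot be told apart.

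The respiratory chain passes electrons from NADH (complex I) or succinate (complex II) through complex III and cytochrome c to oxygen at complex IV, and the protons pumped on the way drive ATP synthase, complex V. A few core subunits of complexes I, III, IV and V are read from mitochondrial DNA and made by the mitoribosome, whose proteins, like all other subunits, are nuclear-encoded and imported. Assembly of the chain therefore draws on both genomes. In epithelial cells that divide in culture these transcripts are among the abundant housekeeping messages.

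Nearly all members passed no test. Of the 187 members, Ndufc2 rose in Lef1KI and Cox7a2l and Mrpl48-ps fell (limma with Benjamini-Hochberg adjusted p under 0.05 over all genes). Among all genes, 1063 of 13336 changed, which is 7.97% (898 or 6.73% higher and 165 or 1.24% lower; 605 and 332 with each library centred on its median, 684 and 287 with trimmed-mean factors). Mrpl48-ps, a pseudogene listed at 0 in Lef1KI, passed the 3 SD filter of the table only through WT, where it is high, so its call supports nothing about the class. The share was 2.15% for nuclear respiratory genes (2 of 93), 1.27% for mitoribosome genes (1 of 79, this pseudogene) and 0 of 15 for mt- genes. In groups as small as the mt- genes and the classes described below, an absence of calls says little. At an unadjusted p under 0.05 there were 15 members (10 higher, 5 lower), against 23.8% of all genes. Groups without overlap were found for 7 members (3.74%), against 11.9% of all genes. The median SE was 0.129 for nuclear respiratory, 0.151 for mitoribosome and 0.26 for mt- genes, against 0.174 for all genes. The 95% confidence interval, which depends on the difference as well as its SE, was set against 0.5 either side of 0 on the log2 scale (1.41-fold). It lay within these limits for 58 of 93 nuclear respiratory genes (62.4%) and 35 of 79 mitoribosome genes (44.3%), against 32.5% of all genes. It did so for none of the 15 mt- genes, whose values spread most among libraries.

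**Figure D1:**
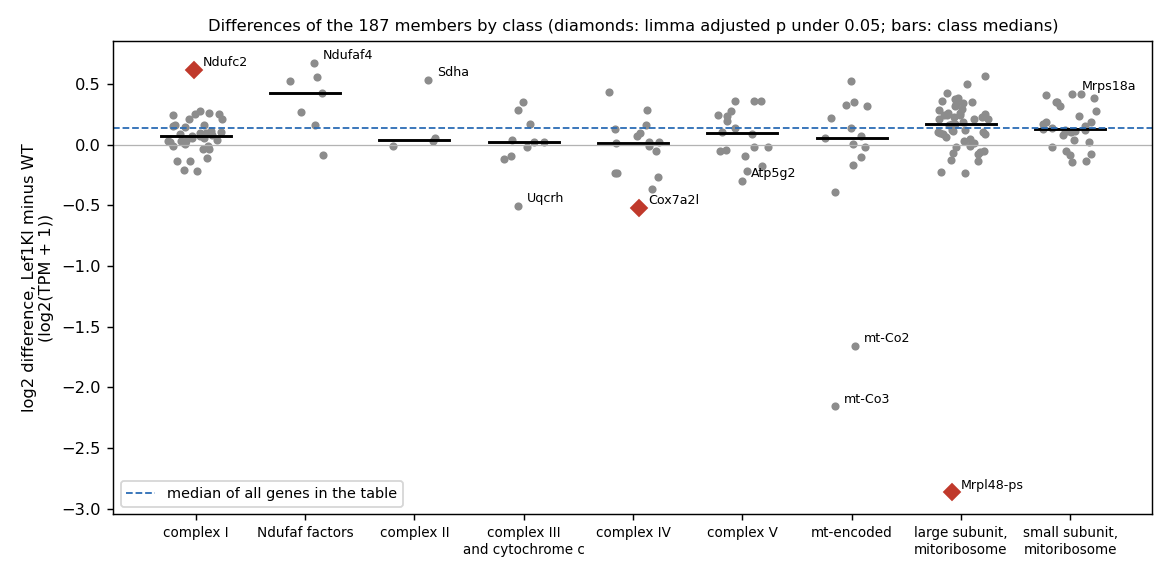
Log2 difference (Lef1KI minus WT, log2(TPM + 1) scale) of each of the 187 members, in columns by class, with bars at the class medians, diamonds for members with limma adjusted p under 0.05 and a dashed line at the median of all genes (0.14). Most members lie near 0, and Ndufc2, Cox7a2l and Mrpl48-ps are the diamonds.

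Levels were high. The median nuclear respiratory gene had a mean of 158 TPM, above 94.2% of genes in the table, the median mitoribosome gene 51.0 TPM (81.4%) and the median mt- gene 1170 TPM (98.9%). Summed over members, nuclear respiratory genes reached 19394, 21005, 20844, 18938 and 22080 TPM in Lef1KI A to E and 23829, 19360, 18449 and 18876 TPM in WT A, B, E and D. The groups overlapped, and the highest sum was that of WT A. Mitoribosome genes summed to 3928, 4562, 5062, 4448 and 5864 TPM in Lef1KI and to 4949, 4060, 3950 and 4223 TPM in WT, again overlapping, with Lef1KI E highest. The mt- genes summed to 59457, 70187, 61192, 80207 and 40166 TPM in Lef1KI and to 46694, 70118, 66677 and 66386 TPM in WT. The same libraries, Lef1KI E and WT A, were the lowest of their groups in mt- transcripts and the highest of their groups in both nuclear sums. Within each group the libraries therefore differed more than the group means, which in Lef1KI and WT were 20450 and 20130 TPM for nuclear respiratory genes, 4773 and 4295 TPM for mitoribosome genes and 62240 and 62470 TPM for mt- genes. Without these libraries together, Ndufc2 (0.63) and Mrpl48-ps (−2.80) passed, Mrpl33 was added (0.62, limma adjusted p 0.0238) and Cox7a2l missed (−0.48, limma adjusted p 0.0619).

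**Figure D2:**
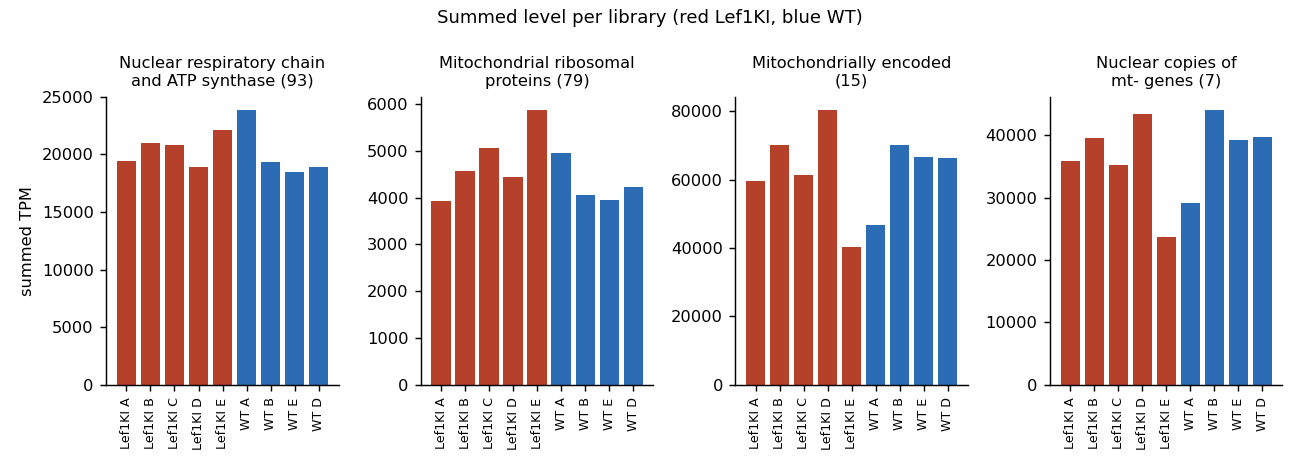
Summed TPM per library (bars from 0, red Lef1KI and blue WT) of the 93 nuclear respiratory genes, the 79 mitoribosome genes, the 15 mt- genes and the 7 nuclear copies of mt- genes. Lef1KI E (40166 TPM) and WT A (46694 TPM) have the lowest mt- sums of their groups.

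The class medians followed the scaling of the libraries. As deposited, the median difference over all genes was 0.14, and it was −0.02 with each library centred on its median and 0.00 with trimmed-mean factors. Relative to all genes, nuclear respiratory genes lay at −0.09 as deposited and after centring and at −0.11 with trimmed-mean factors, and 33 of 93, 33 and 25 of them lay above the all-gene median. The mt- genes lay at −0.08, −0.08 and −0.11 relative to all genes (5 of 15 above it each time). Mitoribosome genes lay at 0.01, 0.01 and −0.02, with 40, 40 and 38 of 79 above it. Taken as deposited, 63 of the 93 and 62 of the 79 had positive differences, a count that became 30 and 39 after centring and 25 and 38 with trimmed-mean factors.

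Complex I, the NADH dehydrogenase, held the member that rose. Ndufc2 encodes an accessory subunit of its membrane arm (ENSMUSG00000030647, chromosome 7 from 97400003 to 97407802, plus strand, mm10). It had 139, 203, 219, 181 and 194 TPM in Lef1KI A to E and 128, 112, 116 and 126 TPM in WT A, B, E and D. All Lef1KI libraries were above all WT libraries, with Lef1KI A closest to them. The difference was 0.62 (SE 0.131, 1.54-fold, limma adjusted p 0.0156). It was 0.59 without WT B (adjusted p 0.0591), 0.60 without WT E (0.0553) and 0.46 after median centring (0.0572), so the call ended in these fits. Among the deposited genes, no other gene model of at least 95% identity was found for Ndufc2. Its neighbour in the complex, Ndufc1, had a difference of 0.28 (SE 0.173, limma adjusted p 0.345), with overlapping groups.

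The other subunits of complex I gave no call. The 38 subunits had a median difference of 0.07, which turned to −0.09 after centring and −0.10 with trimmed-mean factors, and ranged from −0.22 (Ndufa7) to 0.62, and 28 of them had a confidence interval within 0.5 of 0. Ndufa1, another membrane-arm subunit, had 187, 206, 245, 217 and 209 TPM in Lef1KI and 182, 182, 171 and 180.1 TPM in WT. Its groups did not overlap, yet the difference of 0.25 missed the threshold (limma adjusted p 0.151). Ndufb11 was on the other side (159.5 ± 9.08 against 184 ± 15.4 TPM (SD, n = 5 and 4), difference −0.20, limma adjusted p 0.209). The most abundant members were Ndufa4, which later work assigns to complex IV, at 587 ± 56.2 and 652 ± 131 TPM, and Ndufa7 at 307 ± 36.3 and 358 ± 55.5 TPM (limma adjusted p 0.594 and 0.329). Of the subunits that bind the flavin or iron-sulphur clusters, Ndufv1 (−0.03), Ndufs8 (0.08), Ndufs1 (0.12), Ndufv2 (0.14) and Ndufs7 (0.26) did not pass (limma adjusted p 0.38 to 0.86).

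The Ndufaf genes, whose products build complex I and are not part of it, were low (7.49 to 21.3 TPM). Their median difference of 0.42 was the highest of the classes, and it was 0.27 after centring and 0.26 with trimmed-mean factors. None of the 7 passed in limma (7.97% of all genes did), and 0 had an unadjusted p under 0.05 (23.8% of all genes). Ndufaf4 had the largest difference among nuclear respiratory genes, 0.68 (SE 0.407, limma adjusted p 0.333). It had 4.60, 12.3, 19.1, 9.18 and 25.3 TPM in Lef1KI and 5.64, 5.37, 7.76 and 11.6 TPM in WT, so the groups overlapped and Lef1KI A was the lowest of all libraries. Ndufaf2 had 13.4, 29.0, 30.5, 18.0 and 35.4 TPM against 20.2, 15.6, 13.4 and 16.3 TPM, with the same library lowest within Lef1KI (difference 0.53, limma adjusted p 0.252).

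Complex II, succinate dehydrogenase, also belongs to the citric acid cycle. Sdha, its flavoprotein, had 64.1, 84.6, 110.2, 81.7 and 119 TPM in Lef1KI and 86.6, 55.1, 52.0 and 57.7 TPM in WT. Here WT A lay within the Lef1KI range and the other WT libraries below it. The difference of 0.54 (SE 0.202) did not pass (limma adjusted p 0.141), but did without Lef1KI A (0.66, adjusted p 0.0475). The other genes of the complex did not follow: Sdhb, the iron-sulphur subunit, differed by 0.05, and the membrane anchors Sdhc and Sdhd by −0.01 and 0.03.

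Complex III and cytochrome c gave 0 calls among 10 genes, and none had an unadjusted p under 0.05. Among all genes the shares were 7.97% and 23.8%, so 0 in a class this small says little. Uqcrh, the hinge protein that helps dock cytochrome c1, had the largest difference of the class. It had 315, 239.9, 145, 217 and 123 TPM in Lef1KI and 236, 317, 283 and 286 TPM in WT (difference −0.50, SE 0.244, limma adjusted p 0.238). Lef1KI C and E were low, and Lef1KI A was as high as any WT library but WT B. The most abundant genes, Uqcrq and Uqcr10, differed by 0.17 and −0.12. Cyc1 and Cycs, which encode cytochromes c1 and c, had differences of 0.29 and 0.35 (limma adjusted p 0.377 and 0.335), with 24.5 to 51.8 TPM for Cycs in Lef1KI and 24.1 to 31.9 TPM in WT.

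In complex IV, cytochrome c oxidase, Cox7a2l fell, while its level summed with a near-identical gene model did not pass. Cox7a2l (SCAF1) is a relative of the Cox7a subunits known for joining complexes III and IV into supercomplexes (ENSMUSG00000024248, chromosome 17 from 83501918 to 83517330, minus strand). It had 328, 335, 239, 300.2 and 229 TPM in Lef1KI and 375, 429, 438 and 386 TPM in WT. All Lef1KI libraries lay below all WT libraries (difference −0.52, SE 0.134, limma adjusted p 0.0392). With single libraries left out, it passed without Lef1KI A or without Lef1KI B (−0.58 in both), and missed in the other 7 fits, where it lay between −0.56 and −0.45 (limma adjusted p 0.0505 to 0.12).

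The processed pseudogene Gm6969 (ENSMUSG00000066553, chromosome 12 from 24638669 to 24639010, minus strand) is a copy of Cox7a2l. Over 333 aligned coding bases the sequences, from GENCODE M21, held 2 mismatches, and the copy had 6 more bases. The stretch that holds the 6 bases and 1 of the mismatches is shown because such bases separate the coding sequences in this reference. Whether the mice, whose strain is not stated, carry the same bases is not known. Capitals are the bases that differ (coding positions 172 to 255 of Cox7a2l).
Cox7a2l: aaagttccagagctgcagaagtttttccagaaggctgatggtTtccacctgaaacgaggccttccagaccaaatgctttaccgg
Gm6969: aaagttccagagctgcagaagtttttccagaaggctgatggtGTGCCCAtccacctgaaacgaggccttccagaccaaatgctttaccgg

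Gm6969 had 225, 111, 164, 185 and 153 TPM in Lef1KI and 66.1, 24.6, 1.17 and 109 TPM in WT. Every Lef1KI library was above every WT library, the reverse of Cox7a2l. In WT the mean log2 value of Gm6969 was under 3 SD. It passed the filter only through Lef1KI, where it is high, so its separation and the share that follows are description only. The copy took 36.9 ± 6.81% of the summed level of the pair in Lef1KI (SD, n = 5) and 10.7 ± 9.69% in WT (SD, n = 4; exact permutation p 0.0159, adjusted over 23 shares 0.182). The sum of both was 454 ± 68.3 and 457 ± 26.1 TPM, and its difference was −0.02 (SE 0.119, limma adjusted p 0.93). Thus the fall of Cox7a2l was not seen in the summed level, and how reads were divided between the models was not tested.

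Other complex IV genes gave no call. Cox6b1, which bridges the dimer on the intermembrane side, had 653, 587, 512, 522 and 527 TPM in Lef1KI and 692, 669, 669 and 597 TPM in WT (difference −0.23, limma adjusted p 0.206), with Lef1KI A alone inside the WT range. The most abundant, Cox8a and Cox4i1, differed by −0.01 and 0.01. Cox8a averaged 827 ± 45.8 TPM in Lef1KI and 844 ± 170 TPM in WT, and Cox4i1 833 ± 25.4 and 831 ± 103 TPM. Isoforms known from muscle, lung or testis stood far below their partners: Cox6a2 and Cox6b2 at 8.49 and 9.09 TPM, Cox8b, Cox7a1 and Cox4i2 at 0.813, 0.656 and 0.488 TPM. Cox4i2 took 0.0139 to 0.125% of its pair with Cox4i1, and Ndufa4l2, a hypoxia-induced relative of Ndufa4, took 1.4 to 4.35% of its pair, with overlapping groups in both.

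Among the 18 genes taken for ATP synthase by their Atp5 symbols, with the pseudogene Atp5l-ps2 among them, 0 passed in limma (2 had an unadjusted p under 0.05). The shares of all genes were 7.97% and 23.8%. Atp5b, the catalytic beta subunit, was the most abundant nuclear member at 1297 ± 205 and 1356 ± 337 TPM. The c ring, through which protons pass, is made from subunit c, which the genes Atp5g1, Atp5g2 and Atp5g3 encode as the same mature protein. Atp5g2 had 617, 536, 462, 510.3 and 559.6 TPM in Lef1KI and 725, 629, 673 and 607 TPM in WT, with only Lef1KI A above the lowest WT library (difference −0.30, limma adjusted p 0.127). Atp5g3 pointed the other way, with 328, 421, 549.9, 399 and 560.0 TPM against 452, 334, 284 and 325 TPM (difference 0.36, limma adjusted p 0.254). Atp5g1 had 249.8, 337, 423, 300.2 and 436 TPM against 378, 267, 247 and 249.6 TPM (difference 0.28, limma adjusted p 0.377).

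Summed, subunit c genes had 1338 ± 154 and 1293 ± 176 TPM. Atp5g2 made up 40.7 ± 7.38% of the sum in Lef1KI and 51.3 ± 3.81% in WT (exact permutation p 0.0556), and Atp5g3 33.5 ± 4.11% and 26.8 ± 2.34% (exact permutation p 0.0317). Adjusted over the 23 shares of copies and paralogs these were 0.256 and 0.182; a single share at the smallest p the libraries allow, 0.00794, is itself adjusted to 0.182, so the adjusted values say nothing about the shifts. A pseudogene identical to Atp5g2, Gm10175, is not in these sums. It took 20.3 ± 3.03% of its pair with Atp5g2 in Lef1KI and 16.1 ± 3.77% in WT, and Atp5g2 summed with it differed by −0.22 (limma adjusted p 0.234, unadjusted 0.0615) in place of −0.30 (unadjusted 0.0189). Atp5j, the coupling factor 6 subunit, had the smallest unadjusted p among the higher members of the complex (175 ± 30.1 against 135 ± 12.8 TPM, difference 0.36, limma adjusted p 0.136).

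**Figure D3:**
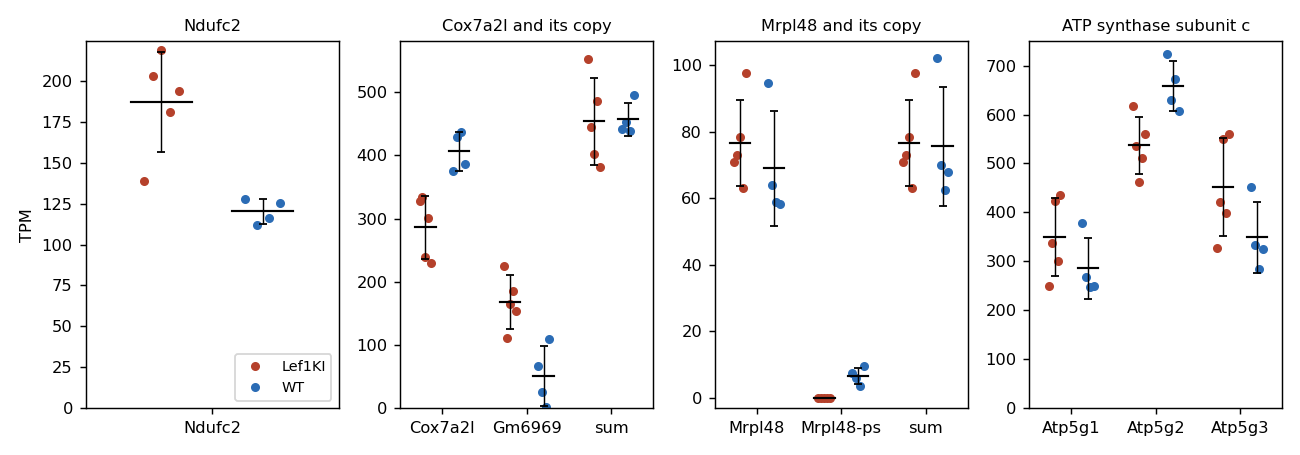
TPM per library (points, red Lef1KI and blue WT) with the mean (line) and SD (bar) for Ndufc2, for Cox7a2l and Mrpl48 with their copies and sums, and for the subunit c genes. The Lef1KI values of Cox7a2l lie below and those of Gm6969 above the WT values, while their sums overlap.

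The mt- genes, read from both strands of the mitochondrial genome, gave 0 calls and 0 unadjusted p under 0.05 (7.97% and 23.8% among all genes). The most abundant as listed were mt-Atp8, a small membrane subunit of ATP synthase, and mt-Co1, the catalytic subunit of complex IV. The gene mt-Atp6, which overlaps mt-Atp8 on the mitochondrial genome, averaged only 1170 TPM, with most of its pair on a nuclear copy (below). How the division of reads between gene models shaped these ranks was not tested. mt-Atp8 had 20981, 27330, 25539, 32439 and 17094 TPM in Lef1KI and 20198, 30571, 25437 and 28485 TPM in WT (difference −0.10, SE 0.221, limma adjusted p 0.799). mt-Co1 had 21979, 22149, 15395, 21646 and 10421 TPM against 15302, 20898, 24699 and 19474 TPM (difference −0.17, SE 0.256, limma adjusted p 0.705). In both genes the groups overlapped and Lef1KI E was lowest.

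Complex I is represented by the mt-Nd genes. mt-Nd1 had 4445, 5173, 4560, 5234 and 3096 TPM in Lef1KI and 2745, 4271, 4502 and 3916 TPM in WT (difference 0.22, limma adjusted p 0.501). mt-Nd2 had 2414 ± 598 and 2178 ± 470 TPM, mt-Nd4 1695 ± 625 and 1346 ± 433 TPM, and mt-Nd5 995 ± 304 and 945 ± 246 TPM (limma adjusted p 0.725, 0.544 and 0.908). mt-Nd3 and mt-Nd4l differed by 0.35 and 0.33, and mt-Nd6, the only protein gene among them on the light strand, by 0.01. mt-Cytb, cytochrome b of complex III, had the largest positive difference, 0.52 (SE 0.337, limma adjusted p 0.362). It had 2194, 4082, 4497, 6285 and 2515 TPM in Lef1KI and 1493, 2862, 2528 and 3793 TPM in WT, with Lef1KI D highest and WT A lowest. mt-Rnr1 and mt-Rnr2, the RNAs of the mitoribosome itself, were at 454 ± 316 and 395 ± 137 TPM in Lef1KI and 529 ± 161 and 389 ± 91.1 TPM in WT.

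Nuclear copies of several mt- genes had high listed levels, and how reads were divided between the models was not tested. mt-Co2 and mt-Co3 had only 0 to 168 and 0.40 to 194 TPM, although they encode core subunits of the same enzyme as mt-Co1. mt-Co2 had 168, 43.0, 0, 48.3 and 61.1 TPM in Lef1KI A to E and 75.6, 115, 97.8 and 85.3 TPM in WT. mt-Co3 had 0.40, 194, 130.3, 0.41 and 123 TPM in Lef1KI and 46.0, 149, 118 and 128 TPM in WT. The negative differences of −1.66 (SE 1.17) and −2.16 (SE 1.53) rested on Lef1KI C for mt-Co2 and on Lef1KI A and D for mt-Co3 (limma adjusted p 0.403 and 0.406).

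The nuclear copies of mt- genes are relics of mitochondrial DNA, and 6 of the 7 in the table lie side by side on chromosome 1 between 24612407 and 24616197 (mm10, minus strand). Gm28661 is identical to mt-Co2 over all 681 aligned bases and had 9462 to 18510.3 TPM. The starts of both are shown because no read from them could tell the models apart.
mt-Co2: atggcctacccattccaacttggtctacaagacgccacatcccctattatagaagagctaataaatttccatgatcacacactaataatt
Gm28661: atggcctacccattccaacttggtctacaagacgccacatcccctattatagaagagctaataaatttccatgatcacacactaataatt

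Gm28661 took 98.8 to 100% of its pair with mt-Co2, Gm28437 (identical to mt-Co3 over 783 bases) 96.3 to 100%, and Gm10925 (identical to mt-Atp6 over 678 bases) 88.6 to 94.3%. For the copies of mt-Co1, mt-Nd3 and mt-Nd4l the shares were up to 19.3%, 64.6% and 45.5%. None of these shares separated the groups (exact permutation p between 0.119 and 0.825). With copies added, mt-Co2 had 14760 ± 3560 and 14100 ± 2190 TPM and mt-Co3 5350 ± 788 and 6716 ± 2000 TPM, and the differences became 0.04 and −0.30 (limma adjusted p 0.921 and 0.396). The copies together held 23628 to 43998 TPM, and mt- genes with their copies 6.39 to 12.4% of each library, lowest in Lef1KI E and WT A.

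**Figure D4:**
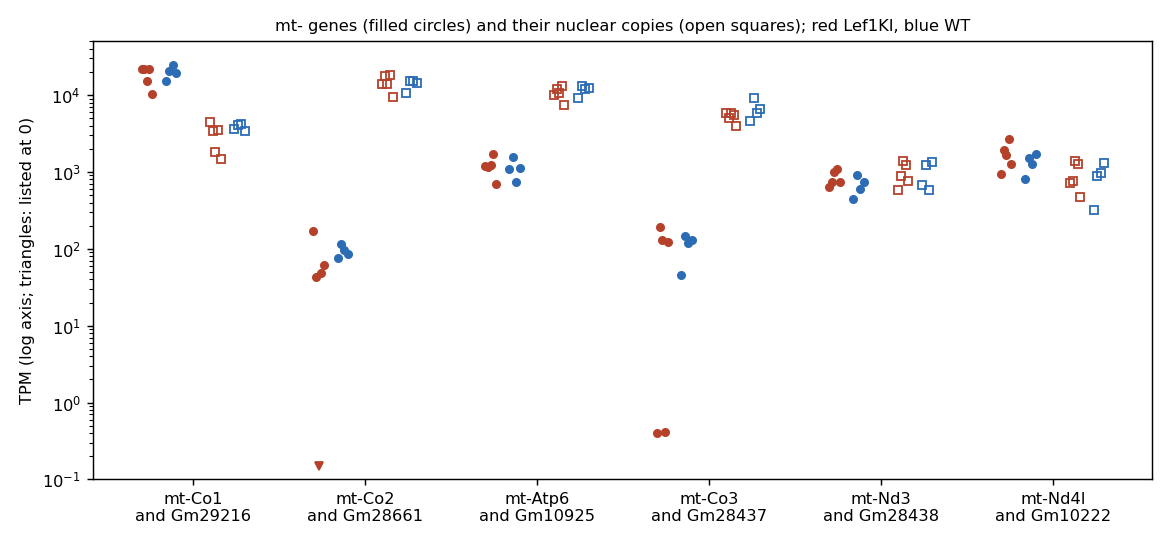
TPM on a log axis of 6 mt- genes (filled circles) and a nuclear copy of each (open squares) per library, red Lef1KI and blue WT, with a triangle for a value listed at 0. mt-Co2 and mt-Co3 lie at or below 194 TPM while their copies lie at or above 3950 TPM in all 9 libraries.

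The mitoribosome makes the proteins that mt- mRNAs encode. Its only call was a pseudogene, Mrpl48-ps (ENSMUSG00000078480, chromosome 4 from 88599175 to 88599810, minus strand). It was listed at 0 in all 5 Lef1KI libraries and had 7.35, 5.88, 3.66 and 9.54 TPM in WT A, B, E and D (difference −2.87, SE 0.198, limma adjusted p 2.54e-05). Mrpl48, the gene it copies, encodes a large-subunit protein and had 70.9, 73.1, 78.5, 63.2 and 97.7 TPM in Lef1KI and 94.7, 64.0, 58.9 and 58.3 TPM in WT. The pair held 12 mismatches over 633 aligned coding bases, of which 7 fall in the 90 bases from coding position 361 to 450 (capitals). This stretch is shown because such bases separate the coding sequences in this reference. Whether the mice carry the same bases is not known, and how reads were divided was not tested.
Mrpl48: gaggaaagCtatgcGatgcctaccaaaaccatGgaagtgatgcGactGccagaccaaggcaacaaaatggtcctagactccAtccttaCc
Mrpl48-ps: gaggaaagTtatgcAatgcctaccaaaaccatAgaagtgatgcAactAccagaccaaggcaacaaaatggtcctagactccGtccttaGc
The summed level of the pair was 76.7 ± 13.0 and 75.6 ± 17.9 TPM in Lef1KI and WT (difference 0.03, SE 0.165, limma adjusted p 0.923). The pseudogene is in the table through WT, where its mean exceeded 3 SD.

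Of the other genes with Mrpl symbols, 0 passed in limma, and 3 had an unadjusted p under 0.05 (7.97% and 23.8% among all genes). The most abundant was Mrpl52 at 223 ± 42.9 and 207 ± 32.7 TPM, followed by Mrpl30 at 157 ± 18.0 and 184 ± 14.5 TPM (limma adjusted p 0.698 and 0.223). Mrpl47 had 28.7, 27.8, 27.8, 26.7 and 35.9 TPM in Lef1KI and 24.8, 19.4, 20.3 and 26.6 TPM in WT. Its groups were parted by a narrow gap between Lef1KI D and WT D (difference 0.36, limma adjusted p 0.149). Mrpl20 had 48.9, 75.2, 116, 84.3 and 123 TPM against 88.2, 51.7, 42.8 and 53.8 TPM (difference 0.57, limma adjusted p 0.242). Mrpl33 had 111, 139.5, 155, 124 and 201 TPM against 167, 77.8, 91.0 and 87.1 TPM (difference 0.50, limma adjusted p 0.22), and passed without WT A (0.74, adjusted p 0.0354). Both genes have Lef1KI A low within its group and WT A high.

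Genes with Mrps symbols gave 0 limma calls among 29, and 3 had an unadjusted p under 0.05 (7.97% and 23.8% among all genes). Mrps18a, which encodes a member of a protein family with Mrps18b and Mrps18c, had 77.3, 64.9, 98.0, 75.3 and 98.0 TPM in Lef1KI and 58.8, 63.1, 61.3 and 59.7 TPM in WT. The groups did not overlap, with Lef1KI B just above WT B (difference 0.42, SE 0.133, limma adjusted p 0.0825), and the gene passed without Lef1KI B (0.50, adjusted p 0.0421). It took 34.8 ± 2.36% of the family's sum in Lef1KI and 30.5 ± 1.15% in WT (exact permutation p 0.0317, adjusted over the 23 shares 0.182). Mrps7, of the head of the small subunit, had 45.2, 46.3, 53.4, 49.2 and 57.8 TPM against 42.6, 44.1, 39.7 and 38.6 TPM, again with no overlap (difference 0.28, limma adjusted p 0.154). Mrps16 and Mrps23, the most abundant of the class, differed by 0.15 and 0.24. Without Lef1KI A, 5 mitoribosome genes rose (Mrpl36, Mrpl38, Mrpl46, Mrps12 and Mrps17, by 0.55 to 0.57) out of 1416 rises among all genes, and Mrpl48-ps fell.

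Among the deposited genes, near-identical models elsewhere in the genome were found for 17 of the 187 members, so their levels are uncertain. Gene models outside the deposited genes were not searched. Gm3244 took 84.5 to 88.3% of its pair with Ndufb4, Mrpl23-ps1 90.3 to 97.7% of its pair with Mrpl23, the models Gm10053 and Gm10108 80.6 to 83.5% of Cycs, and Gm12338 with Gm10012 64.2 to 76.2% of Cox7c. The groups overlapped in each. After members were summed with their copies, Ndufc2 was the only member that passed.

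The lists of genes around the chain held few calls. Among all genes 7.97% passed and 23.8% had an unadjusted limma p under 0.05. In lists this short, an absence of calls says little. None of 39 assembly factors passed (median difference as deposited 0.07, where that of all genes is 0.14; 4 with an unadjusted p under 0.05), nor did any of 30 genes that maintain, transcribe or process mitochondrial DNA and RNA (0.18; 4), 13 regulators of mitochondrial biogenesis (0.11; 1) or 35 genes of import, carriers and membrane organisation (0.14; 2). Among 29 translation factors and tRNA synthetases Mrrf fell, the mitochondrial ribosome recycling factor, which frees the ribosome after a protein is finished. It had 15.3, 13.0, 14.6, 13.9 and 17.9 TPM in Lef1KI and 22.3, 21.8, 20.9 and 20.4 TPM in WT. The groups did not overlap (difference −0.50, SE 0.126, limma adjusted p 0.0372), and with single libraries left out it passed only without Lef1KI A or Lef1KI E, with differences from −0.56 to −0.45 over the 9 fits (limma adjusted p up to 0.119). Among 25 genes of the citric acid cycle and pyruvate dehydrogenase Pdk4 rose, the kinase that shuts off entry of pyruvate into the cycle. It had 9.57, 5.19, 7.89, 8.18 and 3.90 TPM in Lef1KI and 1.69, 3.43, 1.59 and 3.43 TPM in WT. The lowest Lef1KI library, E, stood just above WT B and D (difference 1.16, SE 0.269, limma adjusted p 0.0239), and it missed without Lef1KI C, Lef1KI D, WT A or WT E, where it was 1.03 to 1.11 (limma adjusted p 0.0578 to 0.0823).

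The promoter table of RefSeq (GRCm38.p6, the assembly of mm10) covered 141 members. NRF1, a regulator of respiratory genes, binds a palindrome whose inner part, CGCATGCG, was searched on both strands in the 250 bases upstream of the start. It was found in 9 of 73 nuclear respiratory genes (12.3%) and 7 of 68 mitoribosome genes (10.3%), against 347 of 9644 genes of the table with a promoter (3.6%). The ETS core CCGGAAGT was found in 3 (4.11%), 10 (14.7%) and 643 (6.67%), the YY1 core AAGATGGCG in 1 (1.37%), 2 (2.94%) and 135 (1.4%), and the CCAAT box in 32 (43.8%), 25 (36.8%) and 3937 (40.8%). None of these motifs contains another. The 16 members with the NRF1 letters had differences from −0.30 to 0.68, 11 of them positive as deposited, with a median of 0.08 where that of all genes was 0.14, and 0 passed. The ends of that range, Ndufaf4 and Atp5g2, are shown with the motif in capitals, Ndufaf4 from chr4:24897833-24898082 on the plus strand and Atp5g2 from chr15:102671048-102671297 on the minus strand.
Ndufaf4: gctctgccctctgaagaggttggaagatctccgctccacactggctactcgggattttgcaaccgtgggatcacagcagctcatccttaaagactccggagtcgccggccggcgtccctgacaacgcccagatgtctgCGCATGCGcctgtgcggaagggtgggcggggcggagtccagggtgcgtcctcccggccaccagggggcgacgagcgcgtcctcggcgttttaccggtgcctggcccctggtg
Atp5g2: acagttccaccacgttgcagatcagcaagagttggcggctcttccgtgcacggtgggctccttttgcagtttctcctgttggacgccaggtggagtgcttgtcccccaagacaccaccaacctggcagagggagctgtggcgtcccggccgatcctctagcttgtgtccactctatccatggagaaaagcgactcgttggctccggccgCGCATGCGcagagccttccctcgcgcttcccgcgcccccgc
The same letters thus stand upstream of the members with the highest and the lowest difference of the 16. They lie 112 and 41 bases before the RefSeq start used. For Atp5g2 that start lies inside its GENCODE gene model, which runs from 102662864 to 102672352. The window of Ndufc2 does not hold the NRF1 letters. A match is a description of the sequence and not of binding.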

How the data were processed

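Stranded mRNA libraries of 9 sorted cell pools were measured. The deposited table holds log2(TPM + 1) values, which the authors made with RSEM on mm10, per the submitters' processing notes; tool versions, the aligner and the annotation are not stated in the sources used here. TPM keeps no depth, so the spread between libraries is the error throughout, and p-values measure the spread between pools. From the values, the deposited genes are those with a mean of 3 SD or more in either group; 180 members met this in both groups and 7 in only 1 (Atp5l-ps2, Cox4i2, Cox7a1, Cox8b, Mrpl48-ps, mt-Co2 and mt-Co3).

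Groups were compared with limma 3.58.1 (R 4.3.3), with an intensity trend, on deposited log2 values of 13336 genes, two-sided, with Benjamini-Hochberg adjustment over all of them; the threshold was an adjusted p of 0.05. Differences are Lef1KI minus WT and understate changes of genes near 0 TPM. Shares of copies and paralogs were tested by exact two-sided permutation of the libraries' groups (smallest p 0.00794). Copies were found with blastn 2.17.0 among GENCODE M21 transcripts of the deposited genes only (at least 95% identity over at least 50% of the shorter). All 187 members matched that annotation. The fit was tested on simulated data. No 2 libraries shared more than 1 equal value among the members.

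Members and lists were chosen with earlier results of these data known. The text names Lef1, all mt- genes, per class the 2 most abundant members, up to 3 called per direction and the largest difference, and up to 2 called per direction per pathway or marker list; further genes were picked with their values in view. Alternatives were median centring, trimmed-mean factors, rescaling without mt- genes, a pseudocount of 0.1, a minimum mean of 1 TPM, no intensity trend and leaving out each library. Summing members with copies, leaving out Lef1KI E and WT A together rescaling without mt- genes and copies, and a block on the column letters were added after seeing the data. Count models could not be used.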

Additional observations from a re-analysis of the deposited data

Results flagged for a closer look

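Among 114 groups of values tested (each named member, class or copy sum and marker sum in each group), 11 held a library far from the rest. For independent groups chance alone gives about 1 in 20. The class sums hold the named members, so these groups are not independent and the rate is no measure of an excess. In WT A the mt- sum (46700 TPM, the others 66400 to 70100 TPM), mt-Nd2 (1480 TPM, others 2300 to 2470 TPM) and mt-Nd5 (579 TPM, others 1020 to 1100 TPM) were low. The same library was high in the complex II sum (437 TPM, others 336 to 348 TPM), Cox8a (1100 TPM, others 744 to 774 TPM) and Ndufaf5 (19.7 TPM, others 16.4 to 16.7 TPM). WT D was low in mt-Rnr1 (288 TPM, others 593 to 621 TPM) and high in Mrps23 (127 TPM, others 94.5 to 99.3 TPM). Among Lef1KI libraries, mt-Co2 was listed at 0.0 TPM in Lef1KI C (others 43.0 to 168 TPM), Mrpl52 was high in Lef1KI E (298 TPM, others 190 to 215 TPM), and the leukocyte marker sum was high in Lef1KI A (244 TPM, others 58.1 to 83.3 TPM).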

How the results depend on the processing

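Among the alternatives run, 1 called value turned: Mrpl48-ps, −2.87 as deposited, was 0.0316 (limma adjusted p 0.923) when summed with Mrpl48, since the pair's level is then nearly all Mrpl48. Leaving out 1 library gave 628 (without WT E) to 1686 (without Lef1KI A) changed genes in place of 1063, with 643 without WT B. It gave 0 (without WT B or WT E) to 3 (without Lef1KI A) nuclear respiratory genes in place of 2, and 1 to 6 (without Lef1KI A) mitoribosome genes in place of 1. Nuclear respiratory calls numbered 1 under median centring, without the intensity trend, with copies summed, and without Lef1KI E and WT A together. Mitoribosome calls numbered 0 with copies summed and 2 without Lef1KI E and WT A. The median difference of all genes was −0.0181 under median centring and 0.000469 under trimmed-mean factors, and that of nuclear respiratory genes −0.103 and −0.115. The difference of their summed log2 level, 0.0286 as deposited, was −0.131 under median centring. The causes were not tested. Among 968 values of 51 named genes under these alternatives, 46 lost and 2 gained a call, and 57, all uncalled and from 17 genes, changed sign. A replicate block on the column letters (shared A, B, D and E; C only in Lef1KI) gave 484 changed genes (437 higher, 47 lower), 0 nuclear respiratory genes (4 with an unadjusted p under 0.05) and 1 mitoribosome gene, Mrpl48-ps. The letters are not tied to the labels' replicate numbers, and same-letter libraries did not all deviate together, only WT D being closest to its own letter (correlations over genes −0.259 for A, 0.0199 for B, 0.258 for D and −0.148 for E), so the letters were not taken as pairs. The edgeR fits planned for counts were not run, since the table holds no counts.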
